A study of Mus musculus with 15 samples.

Results

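The thermogenic program and its PGC-1 coactivators were followed through 10 genes chosen by symbol, of 26301 genes in the count tables. They were Ppargc1a, Ppargc1b, Prdm16, Esrra, Nrip1, Ucp1, Ucp2, Dio2, Elovl3 and Adrb3. Of these, 6 had enough reads to be tested (Ppargc1a, Ppargc1b, Nrip1, Esrra, Ucp2 and Dio2) and 4 were too low to be tested (Prdm16, Ucp1, Elovl3 and Adrb3). Ucp1 and Prdm16, which define thermogenic fat, had 0 counts in every library, so the values describe the coactivators and their associates in differentiating 3T3-L1 cells without these 2 transcripts at this depth.

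RNA-seq counts came from 15 libraries of 3T3-L1 cells, mouse preadipocytes that can be induced to form fat cells in culture, in 5 groups of 3 replicates. All cells were collected on day 2 after induction with 1.67 µM insulin, 1 µM dexamethasone and 115 µg/mL IBMX, a phosphodiesterase inhibitor that raises cAMP. The knockdown set held control cells (sh-Empty) and JMJD1A-KD cells (sh-Jmjd1a), in which a retroviral hairpin targets Jmjd1a (listed as Kdm3a), an iron-dependent demethylase of histone H3K9. The rescue set held sh-Jmjd1a cells that also carried LacZ, hairpin-resistant JMJD1A(WT), or JMJD1A(Mut), a mutant defective in iron coordination. All groups except sh-Empty therefore carried the hairpin, and all were antibiotic-selected stable lines. The sources used here do not say whether replicates came from separate infections or cultures, so p-values measure only the spread between these samples, which may be technical.

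Thermogenic adipocytes burn fuel as heat when UCP1 lets protons leak back across the inner mitochondrial membrane. Noradrenaline acts on the beta-3 adrenergic receptor (Adrb3) to raise cAMP, which induces Ppargc1a and Dio2, and DIO2 converts thyroxine to the active thyroid hormone T3 inside the cell. PGC-1alpha (Ppargc1a) and PGC-1beta (Ppargc1b) coactivate nuclear receptors such as ERRalpha (Esrra) on mitochondrial genes, PRDM16 directs the brown fat fate, and RIP140 (Nrip1) is a corepressor that opposes them.

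Total counts ran from 11437058 to 25523148 per library, with a median of 12916162, and the deepest library was JMJD1A(WT) replicate 3. Kdm3a, the targeted gene, stood at 169 to 183 CPM (read counts scaled to library size with TMM factors) in sh-Empty, at 127 to 138 CPM in sh-Jmjd1a and at 117 to 122 CPM in LacZ cells, so the knockdown of its mRNA was partial (log2FC -0.42 ± 0.0484 SE, edgeR adjusted p = 2.91e-08). In cells with a JMJD1A vector, whose reads count for the same gene, levels reached 1650 to 1777 CPM for JMJD1A(WT) and 2123 to 2303 CPM for JMJD1A(Mut). The summed CPM of 9 adipocyte markers (all of them detected in every group) was 5181 to 5259 in sh-Empty, 2668 to 2809 in sh-Jmjd1a, 3410 to 3488 in LacZ, 3898 to 4279 in JMJD1A(WT) and 2631 to 2734 in JMJD1A(Mut). The summed CPM of 8 preadipocyte and fibroblast markers was 7532 to 7647 in sh-Empty, 12793 to 13500 in sh-Jmjd1a, 15763 to 16015 in LacZ, 16693 to 17353 in JMJD1A(WT) and 15206 to 15995 in JMJD1A(Mut). Its largest parts were Col3a1 (means of 4735 CPM in sh-Empty and 8661 CPM in sh-Jmjd1a) and Col1a1 (1153 and 3106 CPM). Dlk1 went the other way, with means of 842 and 502 CPM. In the knockdown 4 of 7 tested markers were higher and 2 lower (57.1% and 28.6%, beside 22.3% and 23.9% of all genes). In these bulk samples fewer adipocytes and less RNA per adipocyte cannot be told apart, and the part of these marker shifts in the members' results was not tested. Of 11 skeletal muscle markers, Myod1, Myog, Myf5, Myf6, Pax7 and Ckm were at 0 throughout, and the summed CPM was 14.6 to 20.8 in 4 groups and 29 to 31.9 in JMJD1A(WT). Des had means of 2.69 to 4.24 CPM in those 4 groups and 15.5 CPM in JMJD1A(WT), and Tnnt3 of 0.54 to 1.27 and 3.83 CPM. Pax3 did not rise, with means of 10.2 to 13 CPM in those 4 groups and 10.5 CPM in JMJD1A(WT). The 6 macrophage markers summed to 0.995 to 4 CPM.

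The comparison of sh-Jmjd1a with sh-Empty asks which members depend on JMJD1A. Of the 6 tested members, 4 were lower (Ppargc1b, Esrra, Nrip1 and Ucp2) and 1 was higher (Dio2) at an adjusted p under 0.05, while Ppargc1a was not called. Over all 12272 genes tested, 23.9% were lower and 22.3% higher, 46.2% in all. Ppargc1b and Dio2 moved by far more than the median absolute log2FC of all genes, 0.22, and Esrra and Ucp2 by more modest amounts. The change of Nrip1, also called, was smaller than that median. Libraries of both groups did not overlap for 5 of the 6 members, beside 53.2% of all genes tested.

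The rescue comparisons ask what JMJD1A(WT) or JMJD1A(Mut) adds to knockdown cells, and since all 3 share libraries their values are given side by side and are not independent. With JMJD1A(WT) against LacZ, Ppargc1b and Ucp2 were higher and Ppargc1a was lower, beside 4.98% of 12557 genes higher and 4.52% lower (9.5% in all). With JMJD1A(Mut) against JMJD1A(WT), Ppargc1b, Esrra and Ucp2 were lower and Dio2 was higher, beside 11.7% of all genes lower and 12.1% higher (23.8% in all). With JMJD1A(Mut) against LacZ, Ppargc1b was lower and 0 members were higher with edgeR or DESeq2 (1, Dio2, at an unadjusted edgeR p under 0.05), beside 4.46% of all genes lower and 4.78% higher (9.24% in all). Groups did not overlap for 4, 4 and 3 of the 6 members in these comparisons, beside 22.9%, 37% and 25.3% of all genes.

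**Figure D1:**
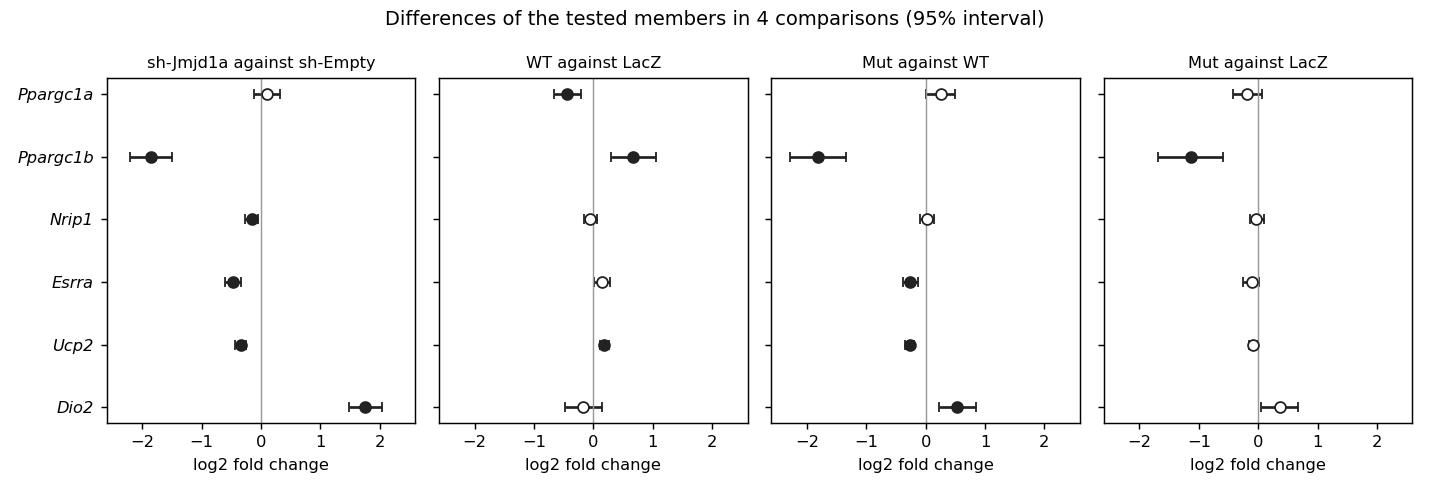
Log2 fold change (x axis) of each tested member (y axis) in the 4 comparisons, with 95% confidence intervals from the edgeR fits; filled points passed an adjusted p of 0.05 and open points did not. Ppargc1b lies left of 0 in the knockdown and in both comparisons of JMJD1A(Mut), and right of 0 for JMJD1A(WT) against LacZ.

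The input to the program was barely detected. Adrb3 (mouse chromosome 8, 28336248 to 28340060 on the minus strand in mm9), the receptor that marks mature fat cells, had 3, 5 and 2 counts in sh-Empty and 0 in each sh-Jmjd1a library. It had 1, 4 and 3 counts with LacZ, 0, 0 and 2 with JMJD1A(WT), and 0 in each library with JMJD1A(Mut). The 0s sat in the sh-Jmjd1a and JMJD1A(Mut) groups and in 2 of the JMJD1A(WT) libraries. A two-sided exact permutation test over libraries gave p = 0.1 for sh-Jmjd1a against sh-Empty and for JMJD1A(Mut) against LacZ, the smallest that 3 against 3 allows, p = 0.2 for JMJD1A(WT) against LacZ and p = 1 for JMJD1A(Mut) against JMJD1A(WT). A total of 3 counts, the limit that a count of 0 allows, corresponded to 0.118 to 0.262 CPM per library, and such limits cover counting error only.

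Ppargc1a (chromosome 5, 51845488 to 51958964, minus strand in mm9), the cAMP-inducible coactivator of mitochondrial genes, was not called in the knockdown. Its level was 16.3, 16 and 16.9 CPM in sh-Empty and 17.4, 16.3 and 19.6 CPM in sh-Jmjd1a. The groups overlapped (log2FC 0.10 ± 0.107 SE, 95% interval -0.12 to 0.32, edgeR adjusted p = 0.466). In the rescue set it was 18.8, 14.7 and 16.1 CPM with LacZ, 13.1, 12.6 and 11.5 CPM with JMJD1A(WT) and 15.6, 13.1 and 15.5 CPM with JMJD1A(Mut).

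Every JMJD1A(WT) library lay below every LacZ library, and Ppargc1a fell (log2FC -0.44 ± 0.116 SE, edgeR adjusted p = 0.00864). The call was lost without LacZ replicate 1 (log2FC -0.33, edgeR adjusted p = 0.101) or without JMJD1A(WT) replicate 3 (log2FC -0.37, edgeR adjusted p = 0.099). The JMJD1A(Mut) libraries reached down to the highest JMJD1A(WT) library, and neither JMJD1A(Mut) comparison passed (log2FC 0.26 ± 0.123 SE against JMJD1A(WT), edgeR adjusted p = 0.131, and -0.18 ± 0.119 SE against LacZ, edgeR adjusted p = 0.404).

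Ppargc1b, on mouse chromosome 18, encodes the sister coactivator that works with ERRalpha in fat, and it was called in all 4 comparisons. It stood at 11.9, 12.2 and 11.2 CPM in sh-Empty (137, 143 and 175 counts) and at 2.69, 3.13 and 3.94 CPM in sh-Jmjd1a (31, 39 and 51 counts). The groups were far apart, with Ppargc1b 3.59-fold lower in sh-Jmjd1a cells (log2FC -1.85 ± 0.174 SE, 95% interval -2.20 to -1.49, edgeR adjusted p = 7.71e-10).

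In the rescue set Ppargc1b stood at 3.61, 4.9 and 5.12 CPM with LacZ, at 6.35, 8.18 and 7.21 CPM with JMJD1A(WT), and at 1.89, 1.32 and 3.11 CPM with JMJD1A(Mut). The 3 groups did not overlap, with JMJD1A(WT) on top and JMJD1A(Mut) at the bottom. Ppargc1b was 1.6-fold higher with JMJD1A(WT) than with LacZ (log2FC 0.67 ± 0.185 SE, edgeR adjusted p = 0.012), a call lost with DESeq2 (adjusted p = 0.0895), without LacZ replicate 1 (log2FC 0.52, edgeR adjusted p = 0.0987) and without JMJD1A(WT) replicate 3 (edgeR adjusted p = 0.0561). It was 3.51-fold lower with JMJD1A(Mut) than with JMJD1A(WT) (log2FC -1.81 ± 0.233 SE, 95% interval -2.28 to -1.34, edgeR adjusted p = 3.66e-08). Against LacZ it was 2.2-fold lower with JMJD1A(Mut) (log2FC -1.14 ± 0.268 SE, edgeR adjusted p = 0.00342), a call lost without JMJD1A(Mut) replicate 2 (log2FC -0.87, edgeR adjusted p = 0.0619). Over all 15 libraries the means were ordered sh-Empty 11.8 ± 0.504, JMJD1A(WT) 7.25 ± 0.919, LacZ 4.55 ± 0.813, sh-Jmjd1a 3.26 ± 0.637 and JMJD1A(Mut) 2.11 ± 0.916 CPM (SD, n = 3 each). The ranges of sh-Jmjd1a and LacZ overlapped, as did those of sh-Jmjd1a and JMJD1A(Mut).

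**Figure D2:**
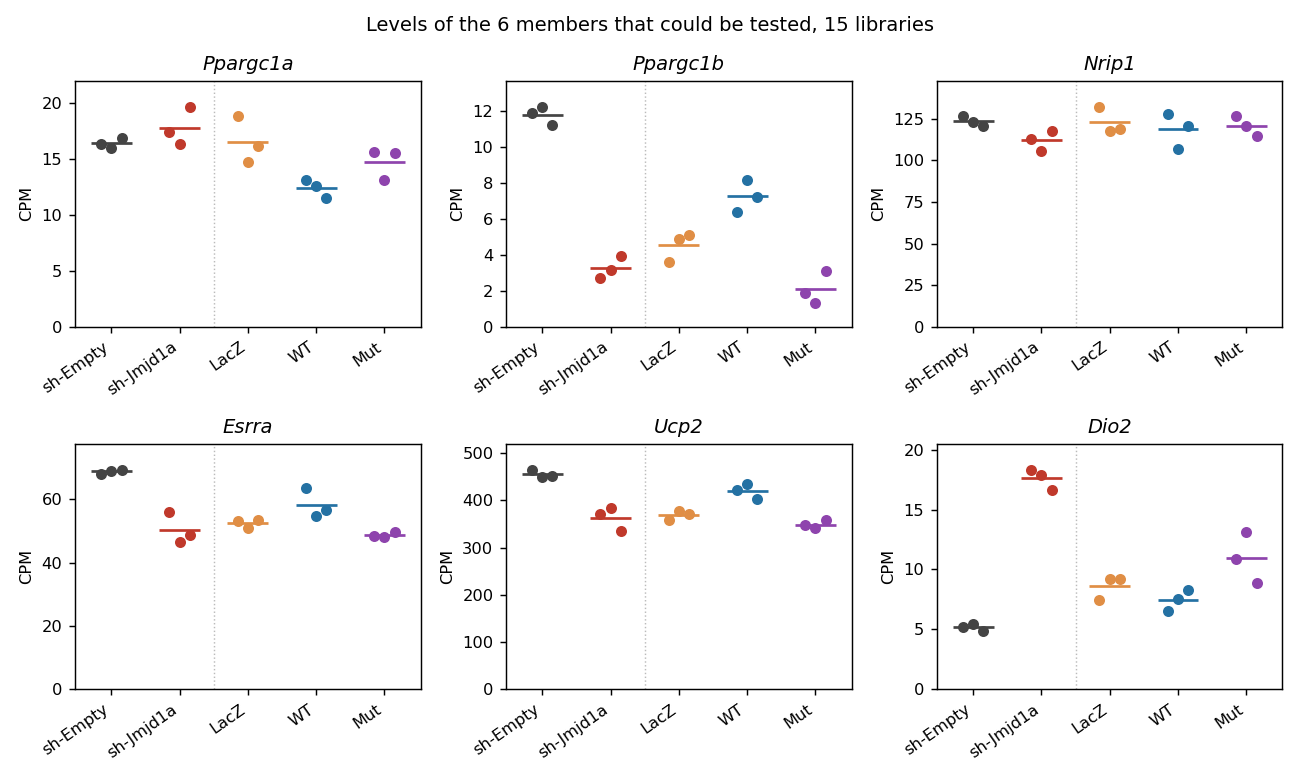
Level in CPM (y axis, from 0) of the 6 tested members in each of 15 libraries, by group (x axis; LacZ, WT and Mut are the sh-Jmjd1a cells with those vectors), with lines at the group means; the dotted line parts the knockdown from the rescue set. Ppargc1b is highest in sh-Empty and lowest with JMJD1A(Mut), Dio2 is highest in sh-Jmjd1a, and Nrip1 lies between 106 and 132 CPM in every library.

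Levels of the 2 coactivators were compared per length, as RPKM (CPM per kilobase of the longest coding transcript of GENCODE M1). These values are approximate, since the counted transcript may differ. In sh-Empty the means were 3.22 ± 0.138 RPKM for Ppargc1b and 2.54 ± 0.0695 RPKM for Ppargc1a, and in sh-Jmjd1a they were 0.89 ± 0.174 and 2.75 ± 0.256 RPKM (SD, n = 3). The ratio of Ppargc1b to Ppargc1a was 1.29, 1.34 and 1.17 in sh-Empty and 0.273, 0.34 and 0.356 in sh-Jmjd1a. Ppargc1b was thus the more abundant of the pair in each sh-Empty library and the less abundant in each sh-Jmjd1a library, at the annotated lengths.

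In the rescue set the ratio was 0.34, 0.589 and 0.563 with LacZ, 0.859, 1.15 and 1.11 with JMJD1A(WT) and 0.214, 0.179 and 0.356 with JMJD1A(Mut). Mean log2 ratios differed by -1.98 between sh-Jmjd1a and sh-Empty, by 1.09 between JMJD1A(WT) and LacZ, and by -2.11 between JMJD1A(Mut) and JMJD1A(WT), with no overlap and two-sided exact permutation p = 0.1 each, the smallest possible. JMJD1A(Mut) and LacZ overlapped in this ratio (difference -1.02, exact permutation p = 0.2).

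**Figure D3:**
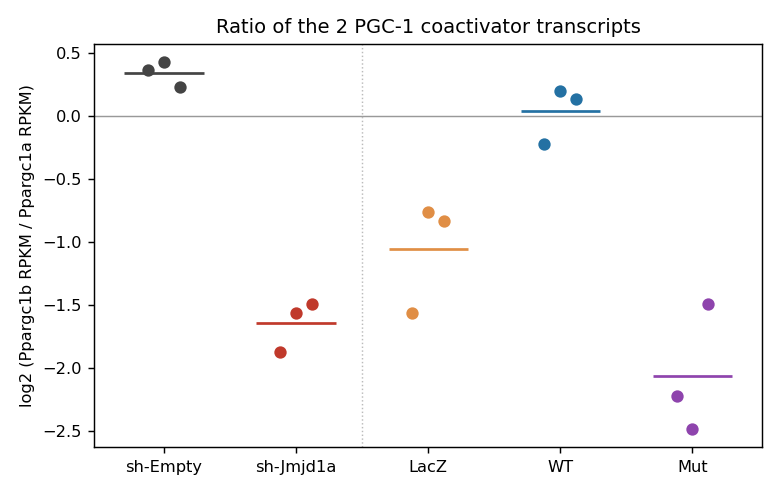
Log2 ratio of Ppargc1b RPKM to Ppargc1a RPKM (y axis) in each library by group (x axis), with lines at the group means; 0 marks equal length-scaled levels. The 3 sh-Empty libraries lie above 0, those with JMJD1A(WT) near it, and all others below.

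Prdm16 (chromosome 4, 153690234 to 154010982, minus strand in mm9), the zinc finger protein that sets brown fat identity, had 0 counts in all 15 libraries. The libraries held 208747396 counts in all, and a count of 0 allows a level of up to 0.118 to 0.262 CPM, depending on the library.

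Nrip1 (chromosome 16, 76287645 to 76374072, minus strand in mm9), the corepressor, stood at 127, 123 and 121 CPM in sh-Empty and at 113, 106 and 118 CPM in sh-Jmjd1a. It fell by 9.89% (log2FC -0.15 ± 0.0516 SE, edgeR adjusted p = 0.0181), with groups that did not overlap. The call was lost with DESeq2 (adjusted p = 0.0593) and without sh-Empty replicate 1 (edgeR adjusted p = 0.0958), sh-Empty replicate 2 (edgeR adjusted p = 0.0533) or sh-Jmjd1a replicate 2 (log2FC -0.10, edgeR adjusted p = 0.135). Its group means among the rescue libraries were 123 ± 7.57 with LacZ, 118 ± 10.7 with JMJD1A(WT) and 121 ± 6.08 CPM with JMJD1A(Mut) (SD, n = 3). No rescue comparison passed, and the 95% intervals of the log2FC were -0.16 to 0.06 for JMJD1A(WT) against LacZ, -0.09 to 0.14 for JMJD1A(Mut) against JMJD1A(WT) and -0.14 to 0.09 for JMJD1A(Mut) against LacZ.

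Esrra (chromosome 19, 6985467 to 6996303, minus strand in mm9) encodes ERRalpha, the nuclear receptor through which both PGC-1 proteins act on mitochondrial genes. Its level was 68.1, 69 and 69.2 CPM in sh-Empty and 55.8, 46.4 and 48.6 CPM in sh-Jmjd1a. All sh-Jmjd1a libraries lay below all sh-Empty libraries (log2FC -0.47 ± 0.0675 SE, edgeR adjusted p = 1.58e-06).

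In the rescue set Esrra stood at 53, 51 and 53.3 CPM with LacZ, at 63.5, 54.6 and 56.7 CPM with JMJD1A(WT) and at 48.5, 48.1 and 49.5 CPM with JMJD1A(Mut). The 3 groups did not overlap and had the same order as for Ppargc1b. Esrra was lower with JMJD1A(Mut) than with JMJD1A(WT) (log2FC -0.26 ± 0.0659 SE, edgeR adjusted p = 0.00231). The differences of JMJD1A(WT) and of JMJD1A(Mut) from LacZ did not pass (log2FC 0.15, 95% interval 0.02 to 0.28 unadjusted, edgeR adjusted p = 0.159, and -0.11, interval -0.25 to 0.02, edgeR adjusted p = 0.352). In the annotation 73 bases of Esrra exons overlap Trmt112 on the opposite strand, and the strand setting of the counting is not stated, so reads there cannot be assigned.

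Ucp1 (chromosome 8, 85814247 to 85822355, plus strand in mm9), the uncoupling protein that defines thermogenic fat, had 0 counts in all 15 libraries. Its paralog Ucp2 (chromosome 7, 107641846 to 107650529, plus strand in mm9), a mitochondrial carrier found in many tissues, was the most abundant member per length, with group means from 87.5 to 114 RPKM. Ucp2 stood at 464, 450 and 452 CPM in sh-Empty and at 371, 383 and 335 CPM in sh-Jmjd1a. Its fall of 20.9% was larger than the spread between replicates (log2FC -0.34 ± 0.0441 SE, edgeR adjusted p = 2.85e-07).

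With the vectors, Ucp2 stood at 359, 377 and 372 CPM for LacZ, at 422, 435 and 402 CPM for JMJD1A(WT) and at 347, 341 and 358 CPM for JMJD1A(Mut). Every JMJD1A(WT) library lay above the other groups. Ucp2 was higher with JMJD1A(WT) than with LacZ (log2FC 0.18 ± 0.038 SE, edgeR adjusted p = 0.000555) and lower with JMJD1A(Mut) than with JMJD1A(WT) (log2FC -0.27 ± 0.0384 SE, edgeR adjusted p = 3.48e-07). JMJD1A(Mut) and LacZ did not overlap, but the difference did not pass (log2FC -0.09, 95% interval -0.16 to -0.01 unadjusted, edgeR adjusted p = 0.178).

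Dio2 (chromosome 12, 91962994 to 91976878, minus strand in mm9), the deiodinase that makes T3 in brown fat, was the only one of the 6 tested members that rose in the knockdown. It stood at 5.22, 5.45 and 4.86 CPM in sh-Empty (60, 64 and 76 counts) and at 18.3, 17.9 and 16.6 CPM in sh-Jmjd1a (211, 223 and 214 counts). The groups were far apart, with Dio2 3.38-fold higher in sh-Jmjd1a (log2FC 1.76 ± 0.138 SE, 95% interval 1.48 to 2.04, edgeR adjusted p = 1.65e-11).

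With the vectors, Dio2 was 7.43, 9.17 and 9.24 CPM with LacZ, 6.57, 7.55 and 8.26 CPM with JMJD1A(WT) and 10.9, 13.1 and 8.91 CPM with JMJD1A(Mut). LacZ overlapped both other groups, while JMJD1A(WT) and JMJD1A(Mut) did not overlap. Dio2 was higher with JMJD1A(Mut) than with JMJD1A(WT) (log2FC 0.53 ± 0.151 SE, edgeR adjusted p = 0.00678), a call lost without JMJD1A(Mut) replicate 2 (log2FC 0.38, edgeR adjusted p = 0.131). It was not called for JMJD1A(WT) against LacZ (log2FC -0.17, 95% interval -0.48 to 0.14, edgeR adjusted p = 0.607) or for JMJD1A(Mut) against LacZ (log2FC 0.36, interval 0.05 to 0.67 unadjusted, edgeR adjusted p = 0.143). The LacZ mean, 8.61 ± 1.02 CPM, lay below the sh-Jmjd1a mean, 17.6 ± 0.918 CPM (SD, n = 3), although both groups carried the hairpin and no active vector. That difference lies between the 2 sets and was not tested. Dio2 exons overlap Gm16738 on the opposite strand by 100 bases.

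Elovl3 (chromosome 19, 46206387 to 46210184, plus strand in mm9), a fatty acid elongase induced by cold in brown fat, had counts in only 4 libraries: 3 in sh-Empty replicate 1, 1 in sh-Jmjd1a replicate 1, 5 in LacZ replicate 2 and 3 in JMJD1A(Mut) replicate 1. It had 0 in the other 11 libraries, its exons overlap Pitx3 by 10 bases, and each of the 4 comparisons gave an exact permutation p = 1.

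**Figure D4:**
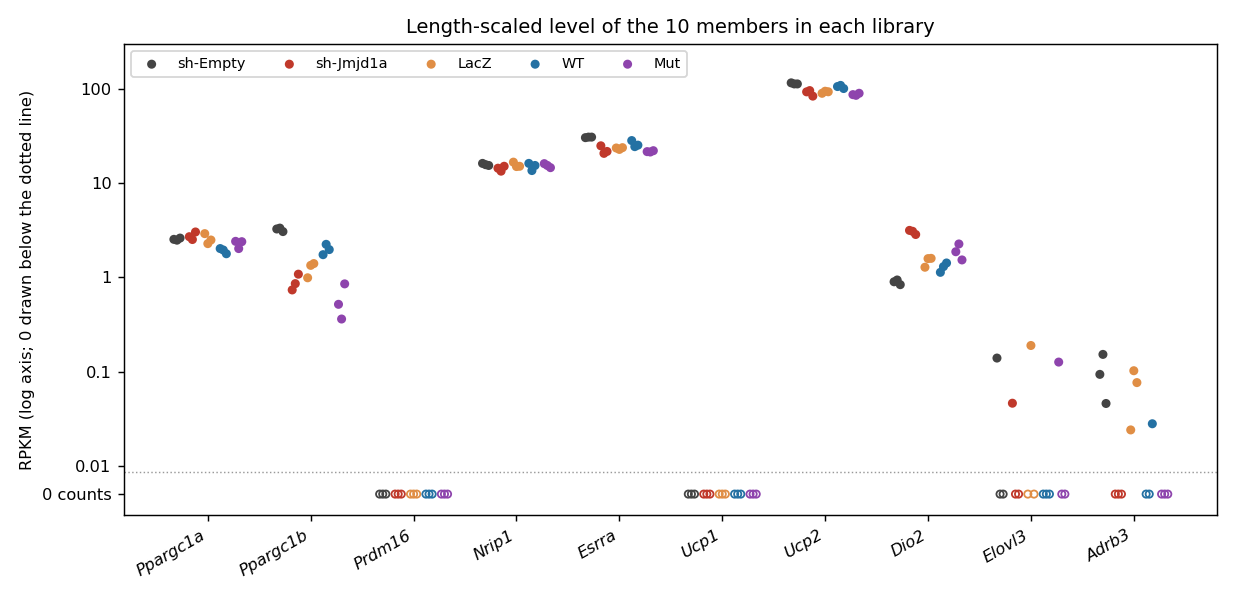
RPKM (log axis) of all 10 members (x axis) in each library, coloured by group, with open points below the dotted line for libraries with 0 counts. Ucp2, Esrra and Nrip1 lie above 10 RPKM, Ppargc1a, Ppargc1b and Dio2 between 0.1 and 10, Elovl3 and Adrb3 have at most 5 counts in a library, and Ucp1 and Prdm16 have none.

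The 250 bases before the start of each member were searched for the cAMP response element, since IBMX was part of the induction in every group. Of the 10 members, 7 had an entry in the RefSeq promoter table (GRCm38.p6), in 8 windows, and Ppargc1b, Elovl3 and Adrb3 had none. The palindrome TGACGTCA and its part TGACG were searched on both strands, with TGACG inside a palindrome not counted again. Dio2 held the palindrome, 95 bases before its start, as did 1.55% of all 32851 windows. TGACG was found at 49 bases before the start in Ppargc1a and at 62 in Ucp2, both on the strand opposite to the gene, and at 147 in Ucp1 on the gene's strand. At least 1 match to TGACG, palindromes included, was present in 17.8% of all windows, and the windows of Esrra, Nrip1 and Prdm16 held neither. The 4 stretches with a match are printed 5′ to 3′ on the gene's strand with the match in capitals (CGTCA is TGACG read on the other strand).
Dio2, chr12:90739039-90739288 (minus strand): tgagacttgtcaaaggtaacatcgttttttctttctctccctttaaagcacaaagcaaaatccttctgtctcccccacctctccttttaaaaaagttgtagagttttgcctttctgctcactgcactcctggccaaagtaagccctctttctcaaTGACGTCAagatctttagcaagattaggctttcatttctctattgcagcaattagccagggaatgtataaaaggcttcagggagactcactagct
Ppargc1a, chr5:51567726-51567975 (minus strand): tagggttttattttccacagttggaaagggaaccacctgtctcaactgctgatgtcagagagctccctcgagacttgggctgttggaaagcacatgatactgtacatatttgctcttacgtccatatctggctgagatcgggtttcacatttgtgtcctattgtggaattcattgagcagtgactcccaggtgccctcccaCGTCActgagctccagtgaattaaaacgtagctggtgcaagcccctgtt
Ucp1, chr8:83290098-83290347 (plus strand): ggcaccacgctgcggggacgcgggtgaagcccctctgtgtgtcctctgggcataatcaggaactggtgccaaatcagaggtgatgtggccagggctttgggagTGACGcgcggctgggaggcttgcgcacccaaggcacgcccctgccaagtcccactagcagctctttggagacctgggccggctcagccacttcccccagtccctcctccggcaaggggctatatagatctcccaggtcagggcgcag
Ucp2, chr7:100493108-100493357 (plus strand): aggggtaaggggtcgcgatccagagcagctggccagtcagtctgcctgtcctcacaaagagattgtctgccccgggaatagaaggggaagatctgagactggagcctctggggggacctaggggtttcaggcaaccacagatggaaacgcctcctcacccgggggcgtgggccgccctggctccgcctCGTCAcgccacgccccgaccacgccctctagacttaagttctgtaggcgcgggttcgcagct
These are matches of letters in reference sequence, with GRCm38.p6 coordinates that differ from the mm9 coordinates given for the genes. Of the 4 genes, Dio2 was higher in sh-Jmjd1a, Ucp2 lower, Ppargc1a not called and Ucp1 not detected.

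For the 4 members called in at least 2 comparisons, the genes with the most similar profile were taken by the root mean square (RMS) difference of log2 CPM over the 15 libraries, centred within each set, among 12202 genes. These are descriptions, and libraries of a group share their treatment. Closest to Ppargc1b were Dgat2, an enzyme of triglyceride synthesis, Igfbp4, a binding protein of insulin-like growth factors, and Plin1, a lipid droplet coat protein (RMS 0.296, 0.299 and 0.308, beside an RMS of 0.852 for Ppargc1b itself). In sh-Jmjd1a against sh-Empty these 3 genes had log2FC of -1.60, -1.42 and -2.36. Closest to Esrra were Iars2, Cyb5b and Cobll1 (RMS 0.059 to 0.064, own RMS 0.179), and closest to Ucp2 were Angptl4, an inhibitor of lipoprotein lipase, Kpna6 and Dnajc2 (RMS 0.035 to 0.042, own RMS 0.143). Closest to Dio2 were Ccn4, a matricellular protein, Itgbl1 and Nrep (RMS 0.168 to 0.178, own RMS 0.592), with log2FC of 1.71, 1.95 and 1.41 in the knockdown.

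The wider program was read from hand-written lists. Of 34 brown and beige fat markers, 20 had under 10 counts in each library, among them Cidea (0 to 3), Cox8b (0 to 1) and Ppara (0 to 3), and Zic1, Tbx1 and Bmp7 were at 0 throughout. In the knockdown 3 of the 9 tested were lower and 1 higher (33.3% and 11.1%, beside 23.9% and 22.3% of all genes). Kcnk3, a potassium channel that marks brown adipocytes, fell in sh-Jmjd1a (log2FC -2.29), rose with JMJD1A(WT) over LacZ (1.88) and fell with JMJD1A(Mut) against JMJD1A(WT) (-2.24). Zfp516, a cold-induced zinc finger activator of Ucp1, fell (-0.66) and Pdk4, a kinase that limits glucose oxidation, rose (0.70) in the knockdown. In the rescue set 8 genes of the list were tested. With JMJD1A(WT) against LacZ 0 were lower and 1 higher (0% and 12.5%, beside 4.52% and 4.98% of all genes). With JMJD1A(Mut) against JMJD1A(WT) 1 was lower and 1 higher (12.5% each, beside 11.7% and 12.1%). With JMJD1A(Mut) against LacZ 1 was lower and 0 higher (12.5% and 0%, beside 4.46% and 4.78%). Beyond Kcnk3, the calls in the rescue set were Mtus1 for JMJD1A(Mut) against JMJD1A(WT) (0.22) and Pank1 against LacZ (-0.77). Both calls were lost at an adjusted p under 0.01 and without JMJD1A(Mut) replicate 2 or 3, that of Mtus1 also without JMJD1A(WT) replicate 2 or 3, and that of Pank1 without LacZ replicate 1 or 3.

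Of 10 white fat markers tested, 6 were lower and 3 higher in the knockdown, beside 23.9% and 22.3% of all genes. With JMJD1A(WT) over LacZ 6 of the 10 were higher, beside 4.98% of all genes, and with JMJD1A(Mut) against JMJD1A(WT) 6 were lower, beside 11.7%. Retn, encoding resistin, had log2FC of -3.44, 2.47 and -3.64, and Agt, encoding angiotensinogen, of -2.84, 1.18 and -1.75 in these comparisons. Zfp423, a factor that holds white adipocytes back from the beige state, rose with JMJD1A(WT) over LacZ (0.85) and fell by 50% with JMJD1A(Mut) against JMJD1A(WT). In the knockdown set it went the other way, from 8.77 to 10.1 CPM in sh-Empty to 11.5 to 15.2 CPM in sh-Jmjd1a. The 6 genes called in these rescue comparisons were therefore not all among the 6 lower in the knockdown. Of the 9 adipocyte markers, 9 were lower in the knockdown (median log2FC -1.87), 9 higher with JMJD1A(WT) (0.81), 9 lower with JMJD1A(Mut) against JMJD1A(WT) (-1.66) and 8 lower against LacZ (-1.05). The loss of Ppargc1b in the knockdown (-1.85) was close to this median, and those of Esrra and Ucp2 (-0.47 and -0.34) were smaller.

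Partners of PGC-1 and PRDM16 were tested for 31 of 35 genes, of which 4 were lower and 9 higher in the knockdown (12.9% and 29%, beside 23.9% and 22.3% of all genes), with a median log2FC of 0.06. Without sh-Empty replicate 3 the number higher was 5. Ncoa1, a nuclear receptor coactivator, fell in sh-Jmjd1a (-0.63), rose with JMJD1A(WT) over LacZ (0.22) and fell with JMJD1A(Mut) against JMJD1A(WT) (-0.42). Ppard, a fatty acid receptor, fell (-0.47) and Thra, a thyroid hormone receptor, rose (0.45) in the knockdown. Thra and Nr1d1 lie tail to tail on opposite strands and share 263 exonic bases, so part of their reads could not be assigned. In the rescue set Thra was lower with JMJD1A(WT) than with LacZ (-0.21), and Nr1d1, a clock repressor, was lower with JMJD1A(WT) (-0.31) and higher with JMJD1A(Mut) against JMJD1A(WT) (0.38). The third family member Pprc1 fell with JMJD1A(Mut) against LacZ (-0.18, edgeR adjusted p = 0.0319). In that comparison 2 of the 31 partners were lower and 1 higher (6.45% and 3.23%, beside 4.46% and 4.78% of all genes). The number lower ranged from 0 to 2 under alternative settings. Pprc1 exons overlap Ldb1 on the opposite strand by 177 of 7516 bases.

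All 16 genes of mitochondrial transcription and replication were tested, and 4 were lower and 1 higher in the knockdown (25% and 6.25%, beside 23.9% and 22.3% of all genes, median log2FC -0.13). The number lower was 2 with DESeq2, and also 2 when either sh-Empty replicate 3 or sh-Jmjd1a replicate 3 was left out. For JMJD1A(WT) against LacZ none passed (0 with edgeR and 0 with DESeq2, while 1 was lower and 2 higher at an unadjusted edgeR p under 0.05). Tfam, which packages mitochondrial DNA, had means of 37.6 ± 2.36 CPM in sh-Empty and 36.2 ± 0.862 CPM in sh-Jmjd1a (SD, n = 3) and was not called. Lonp1, a matrix protease, rose (0.45) and Mterf2, a transcription termination factor, fell (-0.47, edgeR adjusted p = 0.0454) with groups that overlapped. Mterf4 fell by 1.17 on the log2 scale, but 1855 of its 5271 exonic bases overlap Sned1 on the opposite strand, whose counts were 34212 to 44075 in sh-Empty and 16093 to 23067 in sh-Jmjd1a, and the reads of the pair could not be told apart. With JMJD1A(Mut) against JMJD1A(WT), Polg and Twnk, the mitochondrial DNA polymerase and helicase, were lower (-0.23 and -0.22). These were 2 of 16 genes, with 0 higher (12.5% and 0%, beside 11.7% and 12.1% of all genes). The number lower ranged from 0 to 3 under alternative settings. Polg exons overlap Fanci by 856 of 6845 bases and Twnk exons overlap Mrpl43 by 97 of 3603, on the opposite strand. Reads there cannot be assigned.

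Among 18 genes of other heat-producing routes, such as creatine and calcium cycling, 9 were tested, with 2 lower and 2 higher in the knockdown (22.2% each way, beside 23.9% and 22.3% of all genes). Alpl, an alkaline phosphatase, fell (-1.10) and Slc6a8, the creatine transporter, rose (0.38), and with JMJD1A(Mut) against JMJD1A(WT) they again fell (-1.38) and rose (0.38). Slc25a30, a mitochondrial carrier of the uncoupling protein family, rose in the knockdown (0.36) and fell with JMJD1A(Mut) against JMJD1A(WT) (-0.41). Of the 18 genes of adrenergic and thyroid hormone input, 3 of 11 tested were lower and 1 higher in the knockdown, beside 23.9% and 22.3% of all genes, and the number lower was 5 without sh-Jmjd1a replicate 1. With JMJD1A(Mut) against JMJD1A(WT) 6 of 12 were lower, beside 11.7% of all genes. Thrsp, a gene induced by thyroid hormone in fat, fell in the knockdown (-2.65), rose with JMJD1A(WT) over LacZ (1.82) and fell with JMJD1A(Mut) against JMJD1A(WT) (-2.06), at means of 0.321 to 2.44 CPM. Adrb1, the beta-1 receptor, had at most 4 counts in any library. Slc16a10, a transporter of aromatic amino acids and thyroid hormone, rose with JMJD1A(WT) over LacZ (0.83) and fell with JMJD1A(Mut) against JMJD1A(WT) (-1.10).

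**Figure D5:**
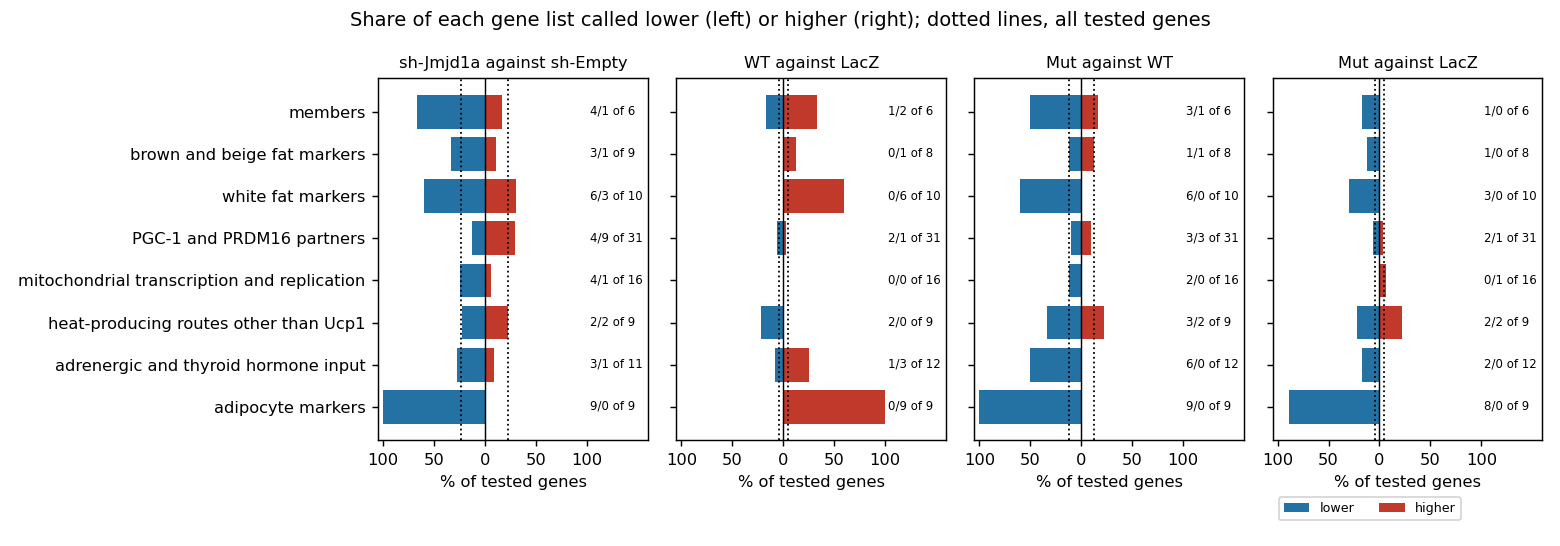
Percent of the tested genes of each list (y axis) called lower (bars to the left of 0) or higher (to the right) at an adjusted p under 0.05 in the 4 comparisons, with the counts at the right of each panel; dotted lines mark the percent over all tested genes. The bars of the adipocyte markers reach 100% in the first 3 panels.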

How the data were processed

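Raw counts per Entrez gene were deposited for each library without normalization, made by the authors with featureCounts from reads trimmed by fastp and mapped to mm9 by HISAT2. The paper names a directional kit and the labels the NEBNext Ultra kit, and the strand setting is not given in the sources used here, so reads of opposite-strand overlapping genes cannot be told apart. Of 26301 gene numbers, 24191 had a symbol in RefSeq (GRCm38.p6, names only), and the other 2110 held 0.5% of counts. Gene coordinates and lengths came from GENCODE M1 (NCBIM37, the assembly of mm9).

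Separate fits were made for 6 libraries of the knockdown and 9 of the rescue set with edgeR 4.0.16 in R 4.3.3 (limma 3.58.1, statmod 1.5.0). TMM size factors and the filterByExpr filter (minimum count 10) were used, and robust quasi-likelihood F tests were adjusted by Benjamini-Hochberg over all tested genes, called at 0.05. The fit was tested on simulated data. Printed CPM used TMM factors over all 15 libraries. Alternatives were RLE scaling, DESeq2 1.42.0, other filters, other sample sets, the legacy quasi-likelihood method, a replicate block, thinning, a threshold of 0.01 and each library left out. Two-sided exact permutation tests over libraries were used for single values. The members and lists were chosen with earlier results of these data known. From each list other than the cell type markers, the named genes were taken from the at most 3 called genes per comparison with the largest absolute log2FC and a mean of at least 1 CPM. Named as well, by their role rather than this rule, were Tfam, Adrb1, Sned1 and the low brown fat markers. The result for 1 gene the rule names is not reported here. CUT&Tag and other data types were not analysed here.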

Additional observations from a re-analysis of the deposited data

How the results depend on the processing

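Of 24 member results, 419 of 432 values under alternative settings kept their side of the threshold. No called value changed sign, while 6 values of Nrip1 in the rescue set, where it was not called, did (log2FC -0.04 to 0.02). For JMJD1A(WT) against LacZ the members called higher were 1 in place of 2 with DESeq2 and 1 at an adjusted p under 0.01, and 1 to 2 with one library left out, while those called lower were 0 to 1. For JMJD1A(Mut), members called higher against JMJD1A(WT) were 0 to 1 and members called lower against LacZ 0 to 1 with one library left out, with 0 in both without JMJD1A(Mut) replicate 2. Nrip1 in the knockdown and Ppargc1b for JMJD1A(WT) against LacZ also lost their calls at 0.01. The cause of these losses was not tested. With the replicate number as a block, the members called in sh-Jmjd1a against sh-Empty were 4 lower and 1 higher, and Ppargc1b had a log2FC of -1.85 (edgeR adjusted p = 8.44e-08). No member call changed under the block. Deviations of same-numbered libraries correlated at -0.03 to 0.06 and those of differently numbered libraries at -0.05 to 0.06. With 3 libraries per group, such small values cannot tell whether the numbers pair the samples. Counts of called list genes stayed within 1.5 times the value reported in 1333 of 1440 alternatives. With the threshold at 0.01 or a library left out, partners of PGC-1 and PRDM16 called higher in the knockdown ranged from 4 to 10 in place of 9, and mitochondrial genes called lower from 2 to 4 in place of 4. Brown and beige markers called lower with JMJD1A(Mut) against JMJD1A(WT) ranged from 0 to 3 in place of 1, with 0 where at least 10 counts were required in every library. Adrb3, Elovl3, Prdm16 and Ucp1 were too low to be tested at this depth, and Ppargc1b rested on 18 to 185 counts per library.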
